A study of Mus musculus with 2 samples.

Results

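The Sox genes encode transcription factors that share the HMG box, a DNA-binding domain also found in Sry, the sex-determining gene of the Y chromosome. Sox1, Sox2, Sox3, Sox4, Sox5, Sox6, Sox8, Sox9, Sox10 and Sox11 are described here in the forebrain of newborn mice. The 10 genes were taken by symbol, through their Ensembl identifiers, from 43346 genes with a row in the deposited tables. No measured value entered that choice, although it was made with earlier results of these data known.

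Total RNA of more than 200 nt, depleted of ribosomal RNA and with spike-in RNAs added, was sequenced as stranded read pairs. The 2 libraries form 1 group, forebrain at age 0 days of healthy mice of strain B6NTac;B6NCrl/Lap, males and females pooled, with no treatment in the labels. The labels number the libraries as biological replicates 1 and 2 of separate tissue isolates, give 15 mice for replicate 1 and a pool of unstated size for replicate 2, and give both the same donor identifier. The design holds no condition to compare, so the values below describe levels within the tissue and the spread between the libraries. A p-value here compares the reads of these libraries only. Replicate 1 held 61441528 counts over genes and replicate 2 held 65097129, of which 70.6 and 78.4% fell on protein-coding genes. Cortical identity was visible in Tbr1, a factor of deep-layer neurons, at 36.8 and 41.5 coding TPM, and in Fezf2, a factor of corticospinal neurons, at 24.0 and 23.4 coding TPM. A coding TPM is a level per transcript length, as TPM rescaled so that protein-coding genes alone make up the full TPM total.

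Sox proteins bend DNA at short AT-rich sites through the minor groove, and most act together with a partner factor at a neighbouring site. Members of one group resemble each other also outside the HMG box and often stand in for one another. In the developing forebrain, group B1 (Sox1, Sox2 and Sox3) keeps neural progenitors dividing, group C (Sox4 and Sox11) acts in newly formed neurons, and group D (Sox5 and Sox6) shapes the timing and identity of neuron classes. Group E (Sox8, Sox9 and Sox10) acts in glia, with Sox9 in radial glia and astrocytes and Sox10 in oligodendrocytes.

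The groups can be read in the DNA of the box itself. The sequences below are 60 bases of each coding strand, from a search for the 21-base motif ATGAANGCNTTNATGGTNTGG in the GENCODE M21 transcripts (assembly GRCm38, transcript strand only). They are shown because they carry the feature that defines the family and the differences that set its groups apart. Capitals mark the 25 bases that are the same in all 10 genes. The search fixed 17 of those, and 8 more of the other 43 positions were shared.
Sox1: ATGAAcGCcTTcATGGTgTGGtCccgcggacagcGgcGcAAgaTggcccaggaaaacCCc
Sox2: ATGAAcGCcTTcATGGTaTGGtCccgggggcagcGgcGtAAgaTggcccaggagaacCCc
Sox3: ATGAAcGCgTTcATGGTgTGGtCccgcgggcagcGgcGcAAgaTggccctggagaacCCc
Sox4: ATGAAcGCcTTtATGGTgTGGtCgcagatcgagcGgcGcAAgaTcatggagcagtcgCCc
Sox11: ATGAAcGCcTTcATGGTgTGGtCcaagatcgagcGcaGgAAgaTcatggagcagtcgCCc
Sox5: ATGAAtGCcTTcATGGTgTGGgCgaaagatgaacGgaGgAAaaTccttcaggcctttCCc
Sox6: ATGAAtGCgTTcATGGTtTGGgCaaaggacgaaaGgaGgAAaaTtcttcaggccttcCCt
Sox8: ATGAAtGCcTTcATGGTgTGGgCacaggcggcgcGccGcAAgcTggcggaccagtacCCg
Sox9: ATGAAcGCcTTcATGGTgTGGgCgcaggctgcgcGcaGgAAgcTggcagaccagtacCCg
Sox10: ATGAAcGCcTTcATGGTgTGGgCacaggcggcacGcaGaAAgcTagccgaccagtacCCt
These stretches lie in coding exons, at chr8:12396523-12396582 (plus strand) for Sox1, chr3:34650554-34650613 (plus) for Sox2 and chrX:60892930-60892989 (minus) for Sox3. Those of group C lie at chr13:28952776-28952835 (minus) for Sox4 and chr12:27342193-27342252 (minus) for Sox11, and those of group D at chr6:143841208-143841267 (minus) for Sox5 and chr7:115489697-115489756 (minus) for Sox6. For group E they lie at chr17:25570157-25570216 (minus) for Sox8, chr11:112782909-112782968 (plus) for Sox9 and chr15:79163336-79163395 (minus) for Sox10. Of 21877 protein-coding genes, 20 (0.0914%) had a transcript with the motif, namely 19 named Sox and Sry.

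Over 210 bases of the box, the 8 pairs within a group were identical at 81.9 to 90.0% of positions (median 86.7%). The 37 pairs between groups were identical at 52.4 to 73.8% (median 66.2%). Sox1 and Sox2 were identical at 90.0%, as were Sox4 and Sox11, whereas Sox5 and Sox6 were identical at 81.9%. Every pair within a group was thus closer than every pair between groups, of which Sox9 and Sox11 were the closest at 73.8% and Sox6 and Sox8 the farthest at 52.4%. The longest identical run in any pair was 48 bases (Sox4 and Sox11), shorter than the read length in the labels. The deposited posterior standard deviation of the gene-level count was 0 for all 10 genes in both libraries.

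**Figure D1:**
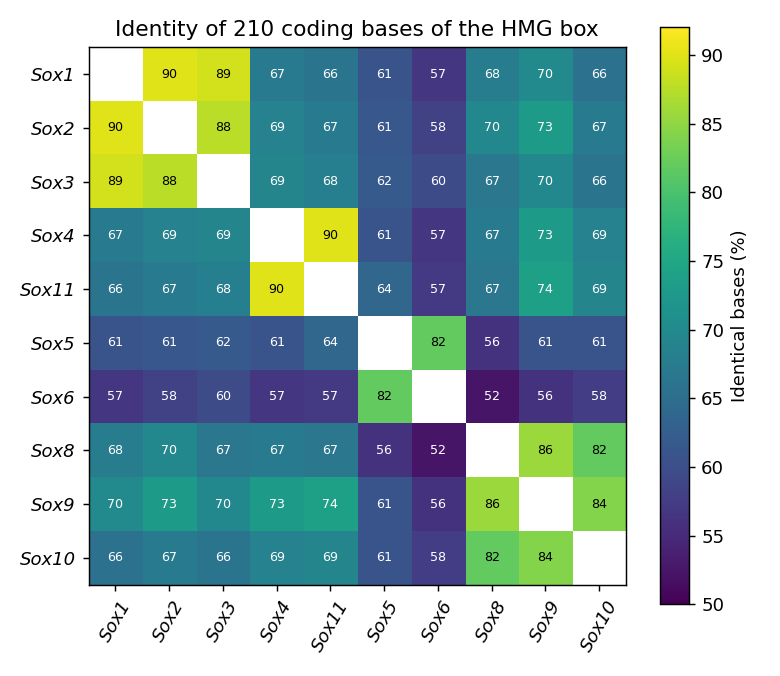
Percent identity of 210 bases of the HMG box for each pair of the 10 Sox genes, ordered by group along both axes. The pairs within groups B1, C, D and E, along the diagonal, are at 81.9 to 90.0%, and all other pairs at or below 73.8%.

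All 10 genes were at or above 1 coding TPM in both libraries, and 8 of them were at or above 1 deposited TPM. The levels spanned more than 2 orders of magnitude on the per-length scale, from Sox11 at 247.7 ± 53.9 coding TPM down to Sox3 at 2.09 ± 0.248 (SD, n = 2 libraries, as throughout). In tissue, fewer cells of a type and less RNA per cell cannot be told apart. The deposited intervals of TPM and the counting floors cover counting and assignment error only, since copies made by PCR were not marked by molecular identifiers.

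Group C, the neuronal pair, was the most abundant. Sox11 (chromosome 12, 27334264 to 27342574, minus strand), which promotes the expression of neuronal genes in newly formed neurons, had 37090 and 55273 counts, or 209.6 and 285.8 coding TPM, in replicates 1 and 2. Its deposited intervals, 206.8 to 211.0 and 281.6 to 286.3, did not overlap. Replicate 2 was the higher, and 96.6 and 97.7% of protein-coding genes lay below Sox11. Sox4 (chromosome 13, 28948919 to 28953713, minus strand), which acts with Sox11 in neurons and also in progenitors, had 21018 and 28774 counts, or 210.6 and 264.3 coding TPM, a mean of 237 ± 38.0. The pair could not be ordered, since Sox11 stood at 0.995 times Sox4 in replicate 1 and at 1.08 times in replicate 2. Sox12, the other gene of group C, stood well below both at 45.7 and 46.0 coding TPM. Sox4 exceeded it 4.61-fold and 5.75-fold in the libraries, and Sox11 4.58-fold and 6.21-fold.

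Group B1, the progenitor genes, was graded. Sox2 (chromosome 3, 34650405 to 34652461, plus strand), the pluripotency and neural stem cell factor, was at 75.8 and 104 coding TPM, a mean of 89.9 ± 20.0. Its range lay below that of Sox4 and above that of every other member outside group C, and 87.5 and 91.0% of protein-coding genes were below it. Sox1 (chromosome 8, 12395295 to 12400126, plus strand), a marker of neuroectoderm that is also used by neurons of the ventral striatum, was at 21.9 and 35.1 coding TPM, a mean of 28.5 ± 9.36. Sox3 (chromosome X, 60891366 to 60893430, minus strand), which is needed for the pituitary and hypothalamus, was at 1.92 and 2.27 coding TPM from 78 and 98 counts, and 39.0 and 38.9% of protein-coding genes lay below it. Sox2 exceeded Sox1 3.47-fold and 2.97-fold and exceeded Sox3 39.5-fold and 45.8-fold within the libraries. The order Sox2, Sox1, Sox3 was the same in both. The Sox3 level is coarse because the deposited TPM carries 2 decimals.

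The Sox1 locus also carries Sox1ot, a noncoding transcript of the same strand that spans the gene. It had 1093 and 1953 counts, or 10.3 and 16.9 coding TPM. In GENCODE M21 the single exon of Sox1 lies within an intron of Sox1ot, so reads from unspliced Sox1ot RNA and from Sox1 cannot be told apart there, and the Sox1 level is uncertain to that extent. The summed level of both was 42.1 coding TPM. The overlapping transcript of Sox2 was not analysed here. Sox5it, a transcript inside Sox5, had 4 and 7 counts. Sox6os and the 5 Sox5os transcripts had none, which allows up to 0.0488 and 0.0461 CPM in replicates 1 and 2. Per length, the deposited upper bounds were 0.786 and 0.818 coding TPM for Sox6os and 1.17 and 1.28 for Sox5os4. Sox5os5, of 207 nt, is shorter than the mean fragments of 249 and 270 nt, so its count of 0 says little about its absence.

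Group D was led by Sox5. Sox5 (chromosome 6, 143828425 to 144781977, minus strand), which controls the differentiation and migration of deep-layer projection neurons, was at 39.4 and 31.8 coding TPM, a mean of 35.6 ± 5.38. Replicate 1 was the higher, while its deposited interval of 36.2 to 45.1 only just cleared that of replicate 2, 30.2 to 35.6. Sox6 (chromosome 7, 115470872 to 116038796, minus strand), which positions and matures interneurons from the medial ganglionic eminence, was at 11.9 and 20.3 coding TPM, a mean of 16.1 ± 5.98. Sox5 thus exceeded Sox6 3.32-fold in replicate 1 and 1.56-fold in replicate 2. Of the Sox5 level in replicate 1, 4.43 coding TPM came from 10.06 counts of Sox5-208, a 351-nt model at 0 in replicate 2. The Sox5 level and its fold over Sox6 in replicate 1 rest partly on that model. The Sox5 and Sox6 proteins both lack a known activation domain and pair through a coiled coil. Sox13, the remaining gene of group D, was at 7.75 and 9.31 coding TPM, below Sox6 in both libraries.

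Group E was led by Sox8. Sox8 (chromosome 17, 25565892 to 25570686, minus strand), which acts beside Sox9 and Sox10 in glia, was at 26.6 and 25.6 coding TPM, a mean of 26.1 ± 0.723. Sox10 (chromosome 15, 79154908 to 79165240, minus strand), required for terminal differentiation of oligodendrocytes and for neural crest glia, was at 8.05 and 6.86 coding TPM, a mean of 7.45 ± 0.844. Sox9 (chromosome 11, 112782224 to 112787760, plus strand), a driver of gliogenesis and of cartilage, was at 5.61 and 5.86 coding TPM, a mean of 5.73 ± 0.173. Sox8 exceeded Sox9 4.74-fold and 4.36-fold and Sox10 3.30-fold and 3.73-fold within the libraries. Sox9 stood at 0.697 and 0.854 times Sox10. The ranges of Sox9 and Sox10 did not overlap over the libraries, but in replicate 2 the deposited intervals, 5.33 to 6.30 and 6.16 to 7.49, did.

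Among neighbours in the order of mean levels, Sox11 and Sox4 overlapped in range, as did Sox5 and Sox1, and Sox1 and Sox8. The other 6 steps were separated, namely Sox4 to Sox2, Sox2 to Sox5, Sox8 to Sox6, Sox6 to Sox10, Sox10 to Sox9 and Sox9 to Sox3. The middle of the order was therefore the least settled part. Sox5, Sox8 and Sox1 followed Sox2 in replicate 1, and Sox1, Sox5 and Sox8 did so in replicate 2.

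**Figure D2:**
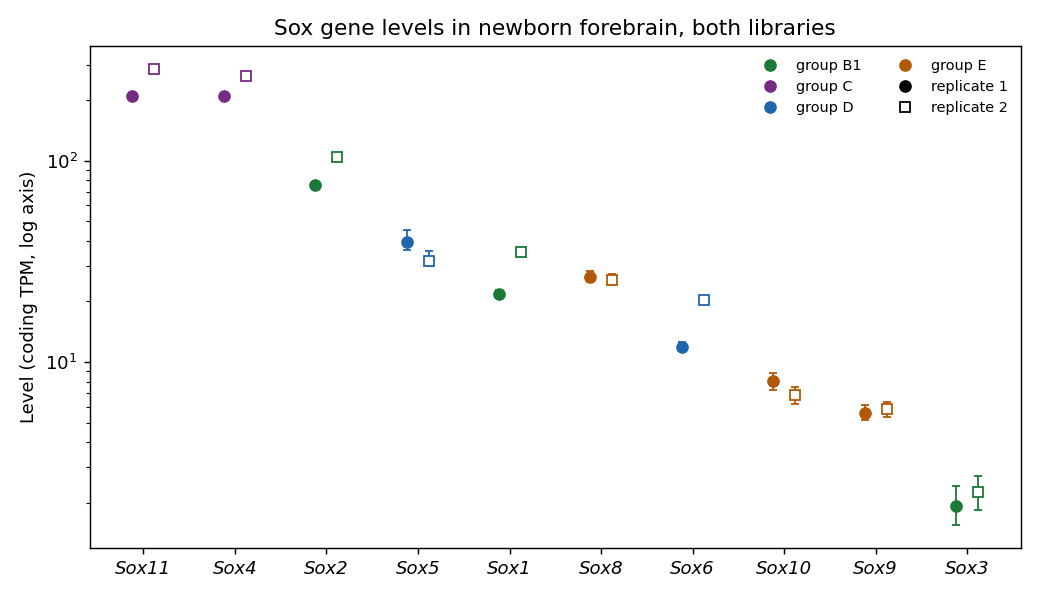
Level of each of the 10 Sox genes in coding TPM (log axis), 1 point per library, with the deposited interval of each value, ordered by mean level and coloured by group. The points of Sox4 and Sox11 lie between 209.6 and 285.8, those of Sox3 at 1.92 and 2.27.

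Summed over the 10 genes, the level was 611 coding TPM in replicate 1 and 782 in replicate 2. Group C held 68.7 and 70.3% of it (69.5 ± 1.15%), group B1 16.3 and 18.1% (17.2 ± 1.27%), group D 8.39 and 6.67% (7.53 ± 1.22%) and group E 6.58 and 4.89% (5.74 ± 1.19%). The order C, B1, D, E was the same in both libraries. The sum of group C was 420 and 550 coding TPM, and that of group B1 was 99.6 and 141. Groups D and E were nearly level between the libraries, at 51.3 and 52.2 and at 40.2 and 38.3 coding TPM. Within group D, Sox5 was at 39.4 and 31.8 and Sox6 at 11.9 and 20.3 coding TPM, so the members moved in opposite directions. By group sums on the coding TPM scale, the difference between the summed levels thus lay in groups B1 and C. On that scale the median log2 ratio of replicate 2 to replicate 1 over genes was itself 0.15. Part of the rise in the summed levels was therefore shared with genes in general, and the sums of groups D and E lay below that median. In shares of counts, which favour long transcripts, group C held 81.0%, group B1 8.69%, group D 7.38% and group E 2.97%, and without Sox11 the per-length share of group C was 52.8%.

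**Figure D3:**
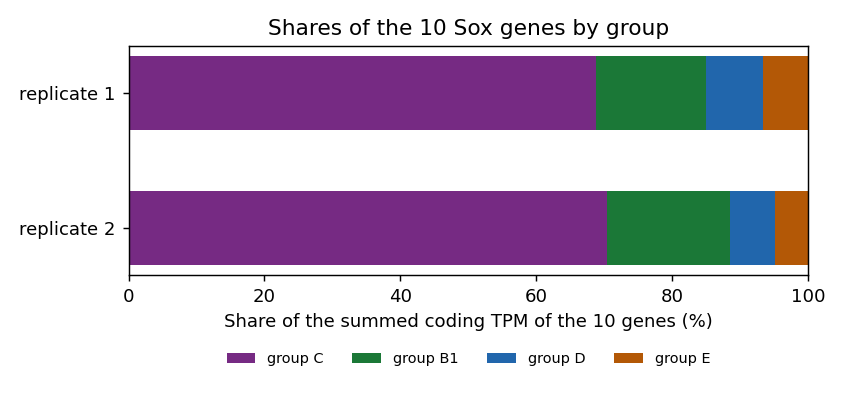
Share of the summed coding TPM of the 10 Sox genes held by groups B1, C, D and E, in percent, 1 stacked bar per library. Group C holds 68.7 and 70.3%, and the order of the groups is the same in replicates 1 and 2.

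The other 10 Sox genes with a row were mostly lower. Sox21, a group B2 gene that counteracts group B1 in progenitors, was at 9.08 and 13.7 coding TPM, and Sox14 of the same group, found in some inhibitory neurons, was at 1.11 and 1.86. The endothelial genes of group F were at 5.24 and 8.58 (Sox18), 4.58 and 7.04 (Sox17) and 2.51 and 2.63 coding TPM (Sox7). Sox30, a testis gene, had 14 and 35 counts. Sox15 had 2 counts in replicate 1 and none in replicate 2, and Sry had none in either. Of the 10, Sox12 was the only one above 20 coding TPM.

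Sox1, Sox2, Sox3, Sox4, Sox9, Sox10 and Sox11 have 1 transcript each in the deposited tables, so transcripts could be compared only for Sox5, Sox6 and Sox8. The tables list 14, 5 and 3 transcripts for these, and 9, 3 and 1 were above 0 in both libraries. The leading transcript of each gene was the same in both libraries. Sox8 was nearly all Sox8-201, at 96.1 and 98.6% of the gene's TPM.

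Sox5 was spread over many models. Sox5-205, a protein-coding transcript, held 30.0 and 34.8% of the gene's TPM (32.4 ± 3.39%), and Sox5-201, also protein-coding, held 17.5 and 15.3%. By counts the same models held 49.7 and 53.7%, and 29.7 and 24.2%. Short models weigh more per length. Sox5-211, of 669 nt, held 12.4 and 14.7% of TPM but 1.27 and 1.33% of counts, and Sox5-208, of 351 nt, went from 11.2% of TPM in replicate 1 to 0 in replicate 2 on 10.06 and 0 counts. Protein-coding models of Sox5 together held 62.5 and 67.8%, models that retain an intron 21.5 and 23.9%, and other processed models 15.9 and 8.26%. Starts within 200 bases were pooled and named by the most distal position of each pool. The pool at 144209568 held 56.6 and 58.1% of the Sox5 TPM. In it Sox5-205 starts at 144209558 and Sox5-201 at 144209480, while Sox5-213 and Sox5-214, at 144209568 itself, were at 0. The pool at 143947106 held 15.7 and 17.2%, mostly from the short Sox5-211, which starts at 143947097 and had few counts. The most distal pool, 144781977, held 10.1 and 15.8%. The pool of the leading models therefore took a TPM share that differed little between the libraries.

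Of these 3 genes, Sox6 had the largest difference between the libraries in the share of one transcript. Sox6-204, which starts at the distal position 116038744 and has 16 exons, held 66.8% of the gene's TPM in replicate 1 and 50.2% in replicate 2 (58.5 ± 11.7%). Sox6-201, which starts further in at position 115995086 and has 17 exons, held 24.9 and 44.9% (34.9 ± 14.1%). Sox6-204 remained first in both. On the level scale, Sox6-204 was at 7.97 and 10.2 coding TPM, with deposited intervals of 7.07 to 8.75 and 8.83 to 11.4. Sox6-201 was at 2.95 and 9.13 coding TPM, with intervals of 1.98 to 3.57 and 7.28 to 10.3. The gap between the libraries in Sox6 thus lay mainly in Sox6-201, whose scaled counts were 2.78-fold higher in replicate 2, against 1.16-fold for Sox6-204. The assignment rests on little sequence. In the GENCODE M21 models, 96 bases of Sox6-201 and 68 bases of Sox6-204 lie in no other listed transcript of the gene. The deposited posterior standard deviations were 70.1 and 141.7 on 518.65 and 1748.39 counts of Sox6-201, and 65.3 and 115.5 on 1366.58 and 1918.17 counts of Sox6-204. Sox6-202 held 8.37 and 3.16%, Sox6-205 held 0 and 1.81%, and Sox6-203 was listed at 0 in both.

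The starts of the 2 leading Sox6 transcripts differed in base composition. The windows below run from 250 bases before to 50 bases after each start, on the minus strand, from RefSeq (GRCm38.p6), at chr7:116038695-116038994 for Sox6-204 and chr7:115995037-115995336 for Sox6-201. They are shown because the libraries differ in how much Sox6 came from each. AACAAT, a core Sox site, TATAAA, the core of a TATA box, and CCAAT were searched on both strands, and no matches overlapped. Capitals mark matches.
Sox6-204: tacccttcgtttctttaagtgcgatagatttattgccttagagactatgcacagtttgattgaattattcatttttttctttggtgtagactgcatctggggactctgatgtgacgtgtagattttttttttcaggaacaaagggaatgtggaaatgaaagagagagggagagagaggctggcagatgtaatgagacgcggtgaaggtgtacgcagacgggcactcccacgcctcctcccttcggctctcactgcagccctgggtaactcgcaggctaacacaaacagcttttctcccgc
Sox6-201: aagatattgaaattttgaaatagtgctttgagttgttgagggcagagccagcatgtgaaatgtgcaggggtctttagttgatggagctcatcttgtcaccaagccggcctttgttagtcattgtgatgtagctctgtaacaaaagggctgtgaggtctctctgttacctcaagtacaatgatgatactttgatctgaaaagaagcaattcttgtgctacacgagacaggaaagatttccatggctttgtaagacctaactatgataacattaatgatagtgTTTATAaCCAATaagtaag
The Sox6-204 window had a GC content of 47% and 11 CpG, and held none of the motifs. The Sox6-201 window had a GC content of 39% and 2 CpG, and held TATAAA, as its reverse complement, from base 32 after the start and CCAAT from base 39. Of the windows not shown, that of Sox6-202 had a GC content of 63.3% and none of the motifs, and that of Sox6-205 held AACAAT at 2 places. Of 32817 RefSeq promoter windows of this length, the median GC content was 52.7% and the median number of CpG was 7, and 8.39% had a lower GC content than the Sox6-201 window, against 28.4% for Sox6-204. AACAAT occurred in 10.7% of all windows, TATAAA in 13.6% and CCAAT in 37.4%. A match or its lack describes these letters only. Sox3, Sox9 and Sox10 had no entry among the promoters.

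**Figure D4:**
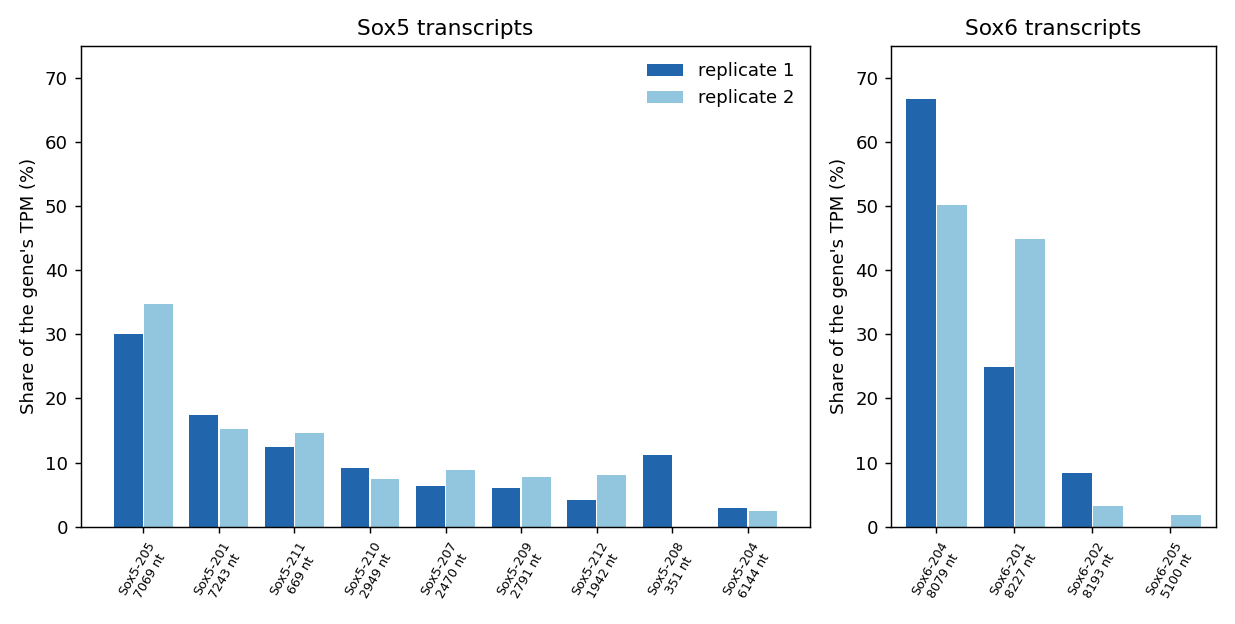
Share of the gene's TPM held by the transcripts of Sox5 and Sox6 named under the bars with their lengths, in percent, 1 bar per library, without the models whose mean share was 0.5% or less. Sox6-201 is at 24.9% in replicate 1 and 44.9% in replicate 2, and Sox5-205 leads Sox5 in both.

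Between the libraries, counts scaled by TMM were compared by a two-sided exact binomial test with Benjamini-Hochberg adjustment over 17544 genes, and a gene was called where it passed 0.05 with a fold of 2 or more. None of the 10 Sox genes was called, while 1809 genes (10.3%) were, 952 higher (5.43%) and 857 lower (4.88%) in replicate 2. At an unadjusted p under 0.05 alone, 8 of the 10 passed, as did 11871 of the 17544 genes tested. The same 8 of 10 was the count at an adjusted p under 0.05 with no fold minimum, where 65.0% of all genes passed. The median log2 ratio of replicate 2 to replicate 1 was 0.11 over the 10 genes and -0.0027 over all genes tested, and the median size of the ratio was 0.30 against 0.26. A ratio above 0 was found for 6 of the 10 and for 49.8% of all genes. With a filter of 100 counts on the mean, 379 genes (2.77%) were called and none of the 9 Sox genes left, Sox3 lying below the filter.

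Sox6 and Sox1 had the largest ratios. The SE given with a ratio covers counting and assignment error only and holds no spread between the libraries. Sox6 had 2059 and 3832 counts, a scaled ratio of 1.53 (log2 0.62, SE 0.04), the only one of the 10 past 1.5-fold, where 19.6% of all genes were called, 9.74% higher and 9.84% lower in replicate 2. Sox1 had 2196 and 3853 counts, a ratio of 1.45 (log2 0.53, SE 0.04). At least as high a ratio was found for 10.5% of genes in the case of Sox6 and for 12.5% in that of Sox1. Sox11, Sox2 and Sox4 followed at 1.23, 1.23 and 1.13. Sox3 had a ratio of 1.03 (adjusted p = 0.913 by the exact binomial test). Below 1, Sox9 stood at 0.930 (adjusted p = 0.326 by the same exact test), Sox8 at 0.884 on 1548 and 1660 counts, Sox5 at 0.781 on 3559 and 3372 counts, and Sox10 at 0.764 on 435 and 403 counts. Group B1 and group C members thus lay above 1 and group E members below, and the group D pair lay on opposite sides. The coding TPM scale sits 0.16 higher in log2 than the scaled counts, and on it Sox9 was at 1.04, so its direction depends on the scale. With library totals in place of TMM, Sox8 and Sox9 both came to lie above 1, at log2 0.017 and 0.091. That scaling shifts all genes alike and moved the median of all genes to 0.19, and 66.7% of its 1947 calls were higher in replicate 2, against 52.6% with TMM. Of the other 10 Sox genes, Sox30 alone was called (log2 1.01, SE 0.45, adjusted p = 0.0408 by the exact binomial test, on 14 and 35 counts).

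**Figure D5:**
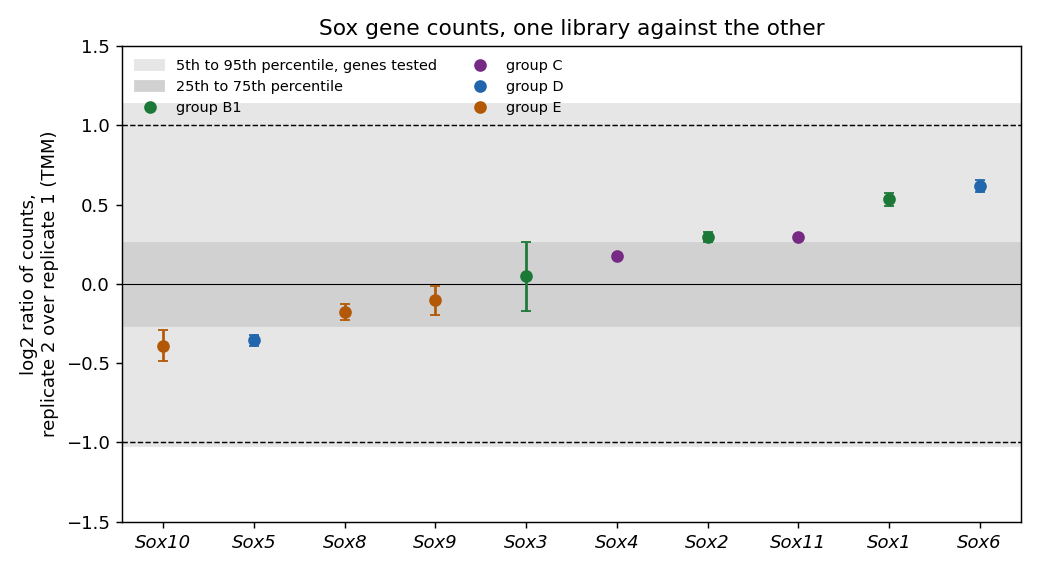
Log2 ratio of replicate 2 to replicate 1 of TMM-scaled counts for each Sox gene, with its SE, over shaded bands for the 17544 genes tested (wide, upper and lower 5% left out; narrow, the middle 50% of genes) and dashed lines at 2-fold. The SE covers counting and assignment error only, not spread between libraries. The 10 genes lie between -0.39 (Sox10) and 0.62 (Sox6), inside the wide band, -1.02 to 1.13.

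Markers of the cells that use these genes were set beside those ratios, in coding TPM of replicate 1 and replicate 2. For the radial glia that carry group B1 and Sox9, 0 of 9 markers were called, 5 ratios were above 0 and the median log2 ratio was 0.0066. Their summed levels were 2106 and 2099, mostly from Fabp7 at 1290 and 1131 (log2 -0.40), followed by Vim at 427 and 532 (log2 0.24). Markers of intermediate progenitors (median log2 0.21), young neurons (-0.15), deep-layer neurons (0.08, summed level 405 and 444) and astrocytes (-0.19, summed level 721 and 685) had no called gene. Those of oligodendrocyte precursors, the cells in which Sox8 and Sox10 act, had a median log2 ratio of -0.19, 3 of 6 ratios above 0 and no called gene, with Olig1 at 126 and 99.5 (log2 -0.50), Olig2 at 41.4 and 32.7 (log2 -0.50) and Pdgfra at 34.6 and 41.6 (log2 0.11). Those of myelinating oligodendrocytes had a median of 0.20 and Mog at 0 counts in both. Beside Sox6, the markers of interneurons from the medial ganglionic eminence had a median of 0.31 and summed levels of 531 and 627. Lhx6, their defining factor, was at 54.1 and 80.6 (log2 0.31), and 1 of 7, Nkx2-1, was called at 2.81 and 9.94.

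Markers of other tissues and cells were set beside them too. Called higher in replicate 2 were 6 of 6 hypothalamic markers (summed level 13.3 and 41.4, with Fezf1 at 5.83 and 18.7), 4 of 6 cartilage markers (20.7 and 64.4, with Col2a1 at 6.72 and 27.1) and 3 of 5 meningeal markers (279 and 761, with Col1a1 at 25.6 and 170.6). Of endothelial markers, 0 of 5 were called, with all 5 ratios above 0 and a summed level of 187 and 234. Erythroid markers had a median of -0.66, summed levels of 2278 and 1707 and no call. Neural crest glia markers had a median level of 1.18 and 0.772, although the list also holds Fabp7, the leading radial glia marker, and 1 was called lower in replicate 2, Cdh19, on 44 and 22 counts. The hypothalamic markers stand beside the Sox3 level, the cartilage markers beside Sox9 and the crest markers beside Sox10, and their part in those levels was not tested.

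Partners and known targets of the proteins varied widely in level. Of 6 POU and Pax partners of group B, none was called, 3 had ratios above 0, and Pou3f3 led at 74.5 and 78.3 coding TPM. Pou3f1, a POU factor of the same class, was at 29.6 and 18.9 (log2 -0.80). Pax6, which binds with Sox2 in the lens and is shared by radial glia, was at 18.5 and 31.6 (log2 0.78). Group B1 targets gave 4 tested genes of 5 and no call, with Hes5 at 89.4 and 96.2, Nes at 31.4 and 37.7, Notch1 at 23.0 and 37.2 and Fgf4, an embryonic stem cell target, at 0 in both. Of 4 group C targets none was called. Tubb3, the neuronal tubulin that Sox4 and Sox11 activate, was at 3808 and 3660, Dcx at 324 and 406, and Tead2 at 27.1 and 37.1. Of 10 partners and targets of group E, Col2a1 was called higher and Tfap2a, on 23 and 2 counts, lower in replicate 2. Nfib and Nfia, which join Sox9 in glia formation, were at 110 and 129 and at 49.7 and 42.4, and the myelin gene Mbp at 22.3 and 26.7. Nfia had 3420 and 4913 counts (log2 0.24), so its direction depends on the scale. The same held for Pou3f3 (log2 -0.08), Hes5 (log2 -0.11) and Tead2 (log2 -0.13), each higher in replicate 2 in coding TPM alone. Sufu and Ppp3ca, listed with the modulation of group E, were not called, at 7.16 and 10.03 and at 217 and 208.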

How the data were processed

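The authors deposited gene and transcript tables of each library on mm10, per the labels. Neither aligner nor quantifier is named here: not given in the sources used here. The deposited expected counts were rounded. The deposited TPM was rescaled so that protein-coding genes make up the whole (coding TPM, factors 7.38 and 4.54), and the deposited FPKM served as an alternative. The authors' isoform percent values, per the file headers, gave transcript shares. Symbols came from GENCODE M21 for 42462 of 43346 genes, as did coordinates, exon numbers and the bases found in no other transcript. The deposited lengths differ from M21 for some models, such as Sox2-201 (2457 against 2057 nt) and Sox5-205 (7069 against 3879 nt). The levels rest on the deposited lengths. The 26248 tRNA entries and 97 spike-ins were left out. Gene totals were 61441528 and 65097129 counts, and a count of 0 allows up to 3.

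TMM factors came from edgeR 4.0.16 (R 4.3.3) over genes whose mean reached 10 counts. The exact binomial test, with 0.5 added to counts for ratios, ran over 17544 genes in scipy 1.17.1, pandas 2.3.3 and Python 3.11.15. It was also run on simulated counts that held counting noise only. That run cannot show how the test behaves under spread between libraries beyond counting noise. DESeq2 1.42.0 gave alternative size factors. The members, lists and tests were chosen with earlier results of these data known. Of each list, at most the 3 genes with the highest mean level, the lowest and any called gene were named; Tbr1, Pax6, Pou3f1, Mbp and other list genes outside this rule were chosen after their values were seen. For transcripts the leading one and the next were named, with further Sox5 and Sox6 models chosen after their values were seen.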

Additional observations from a re-analysis of the deposited data

How the results depend on the processing

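The median level of the 10 genes was 26.5 coding TPM, and 24.2 to 28.7 without either replicate. With deposited TPM, whose total spans all features, it was 4.8. Shares of group B1 were 8.69% by counts and 26.6% without Sox11, an alternative chosen after seeing the data. Those of group C were 81.0 and 52.8%, of group E 2.97 and 8.86%, and of group D 11.6% without Sox11. No Sox gene of the 10 was called in any alternative run at 2-fold (9 of them with the filter of 100 counts, which Sox3 did not pass), and 1 (Sox6) was at 1.5-fold. Library totals turned Sox8 to 0.017 and Sox9 to 0.091 on the log2 scale, since that scaling shifts every gene by nearly the same amount, and gave 1947 genes called, 66.7% of them higher in replicate 2 against 52.6%, with a median shift of 0.19. Over all genes, 1809 calls became 3434 at 1.5-fold, 379 at a mean of at least 100 counts, 2564 with no filter and 1099 among protein-coding genes. No paired analysis was possible because the libraries form 1 group. Leaving out a library left no comparison between libraries.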
